A study of Mus musculus with 8 samples.

Results

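The genes described here are 35 genes of programmed cell death: *Trp53*, which encodes the tumor suppressor p53, with its ubiquitin ligase gene *Mdm2*, 14 target genes of p53, 13 genes of the BCL2 family and 6 genes of caspases and mitochondrial death factors. They were taken by gene symbol from the deposited table of 17167 genes, and all 35 were found and had enough counts to be tested, as had 14428 genes in all. The cells were cultured undifferentiated spermatogonia (A_undiff), the testis population that includes the spermatogonial stem cells (SSCs), grown from adult wild-type mice on fibroblast feeders that were removed by differential adhesion before treatment. In the AGX51 group, 4 cultures from separate mice received AGX51, a small molecule that blocks the ID family of transcriptional inhibitors, at 80 µM for 20 h. In the vehicle group, the same 4 cultures received DMSO for 20 h. The sample labels write the dose unit as mM and the strain as CBA/J, while the methods name µM and C57BL/6J.

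In the mitochondrial pathway of apoptosis, BH3-only proteins sense stress and bind survival proteins such as BCL2, BCL-XL and MCL1. This frees the effectors BAX and BAK to open the outer mitochondrial membrane, after which cytochrome c, APAF1 and caspase-9 start the caspase cascade. p53 raises the transcription of several BH3-only genes and death receptors, and also of genes for arrest and repair and of *Mdm2*, its own negative regulator. Spermatogonia are known to be sensitive to p53-dependent death after DNA damage, and BCL2 family balance controls germ cell number in the testis.

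Each library held 4303318 to 8441399 counts with AGX51 and 8330176 to 9586105 with vehicle. Levels are given as CPM, counts divided by library size, after TMM scaling, which corrects for differences in library composition, in the order of cultures 1 to 4. Markers of germ cells and spermatogonia were present. Their summed level was 1289 to 1676 CPM in AGX51 and 1906 to 2371 CPM in vehicle libraries, without overlap. Of 12 tested markers, 0 were called higher and 3 lower, against 8.57% and 9.93% of all tested genes. The 3 were *Dazl* (mean 349 CPM with AGX51, 815 CPM with vehicle), *Etv5* (22.6, 42.5 CPM) and *Gfra1* (73.8, 120 CPM). *Dazl* made up most of the fall in the sum. Those not called included *Ddx4* (235, 266 CPM), *Sall4* (33.5, 37.2 CPM), *Tex101* (367, 358 CPM), *Zbtb16* (60.8, 85.7 CPM) and *Uchl1* (101, 72.9 CPM). Fibroblast markers, which the feeder cells would bring, were present too and summed to 5401 to 10100 CPM with AGX51 and 4143 to 6663 CPM with vehicle. Of 24 tested fibroblast markers, 11 were called higher and 3 lower with AGX51, against 8.57% and 9.93% of all tested genes. The 3 lower were *Twist1*, *Prrx1* and *S100a4*. Some fibroblast markers, such as *Thy1*, are also expressed by spermatogonia. Markers of Sertoli cells summed to 28.8 to 57.6 CPM with AGX51 and 37.2 to 57.4 CPM with vehicle, with 0 of 4 tested markers called. The 3 macrophage markers summed to 40.6 to 111 CPM with AGX51 and 43.2 to 106 CPM with vehicle, and *Cd68* was called higher, by the rule given below (log2 fold change 0.85, AGX51 over vehicle, adjusted p = 0.00169). Of the other markers tested, *Star* of Leydig cells was called higher (0.75, adjusted p = 0.039), and *Kdr* of endothelial cells (-2.57, adjusted p = 0.00014) and *Tnp1* of spermatids (-1.01, adjusted p = 0.00124) were called lower. *Tnp1*, the only spermatid marker listed of 6, was at 11.1 to 19.2 CPM with AGX51 and 25.9 to 34.2 CPM with vehicle. The part of these differences in the changes below was not tested. For some genes a fit that took the fibroblast marker mean as a term is given. That mean differed between the groups, so this fit cannot separate it from treatment. In these bulk libraries, fewer cells of one type and less RNA per cell cannot be told apart.

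Of the 35 genes, 8 passed the test after AGX51, and the BH3-only genes among them moved in both directions. The p53 targets *Aen*, *Tnfrsf10b*, *Perp* and *Plk2* and the BH3-only genes *Bbc3* and *Hrk* rose, while the BH3-only gene *Bik* and the survival gene *Bcl2* fell. Genes counted as called had a fold change above 1.5 and, in the quasi-likelihood test of edgeR, a p below 0.05 after Benjamini-Hochberg adjustment. By this rule 6 of 35 members were higher and 2 were lower, together 22.9% of the members, against 18.5% of all tested genes. Higher calls made up 17.1% of the members and 8.57% of all tested genes, and lower calls 5.71% and 9.93%. With no fold threshold, 13 members passed (37.1%, against 30.5% of all tested genes), 9 higher and 4 lower. The CPM values of the 4 AGX51 and 4 vehicle libraries did not overlap for 11 members, or 31.4%, and for 30.2% of all tested genes. The median log2 fold change (log2FC, AGX51 over vehicle) was 0.03 over the members and 0.00 over all tested genes. With culture as a block the same 6 and 2 members were called, against 20.9% of all tested genes (9.66% higher and 11.3% lower). With library totals as the only scaling, 35.2% of the calls over all tested genes were higher, against 46.3% with TMM.

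**Figure D1:**
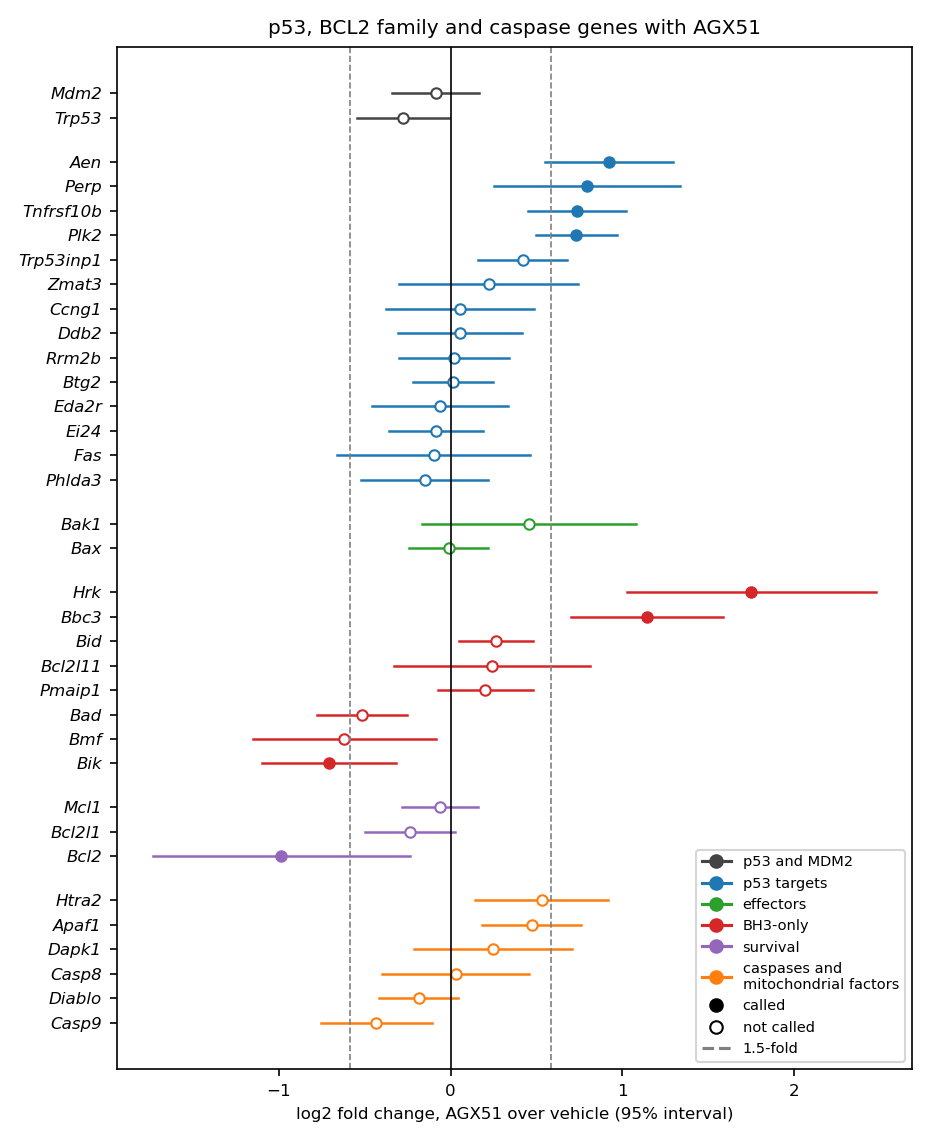
Log2 fold change of each of the 35 genes, AGX51 over vehicle, with its 95% interval from the edgeR fit (4 libraries a group), ordered by role. Filled points passed the test, open points did not, and the dashed lines mark a fold change of 1.5. The BH3-only genes span the widest range, with *Hrk* at 1.75 and *Bik* at -0.71, while most p53 targets lie between the dashed lines.

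The gene for p53 itself and its feedback gene were not called. *Trp53*, on chromosome 11 (GRCm38, GENCODE M21, as for all genes below) from 69580359 to 69591873, was at 40.3, 42.4, 33.9 and 51.6 CPM with AGX51 and at 50.02, 48.3, 55.2 and 50.5 CPM with vehicle. The groups overlapped because of AGX51 culture 4, the other 3 cultures being lower with AGX51. The log2FC was -0.28 (95% interval -0.54 to -0.01, adjusted p = 0.107). With culture as a block it was -0.29 (adjusted p = 0.0259), under the fold threshold. *Mdm2*, which encodes the ligase that marks p53 for degradation and is among the best known p53 targets, was at 167.9, 196.5, 201.6 and 233.8 CPM with AGX51 and at 194.9, 203.1, 204.3 and 248.1 CPM with vehicle. The log2FC of *Mdm2* was -0.09 (95% interval -0.34 to 0.17, adjusted p = 0.609), so that a fold change of 1.5 in either direction (0.58 on the log2 scale) lay outside the interval.

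Of the 14 p53 targets, 4 were higher (28.6%, against 8.57% of all tested genes) and 0 lower (against 9.93%). The other 10 missed the thresholds, and the median log2FC was 0.06. *Plk2*, which encodes a polo-like kinase that acts in centriole duplication and stress signaling, lies on chromosome 13 from 110395046 to 110400844. It was at 165.0, 146.6, 135.3 and 166.1 CPM with AGX51, against 80.8, 96.5, 86.0 and 105.8 CPM with vehicle. Every AGX51 library was above every vehicle library, and the log2FC was 0.73 (standard error, SE, 0.11, adjusted p = 0.000364). *Tnfrsf10b*, the mouse gene for the death receptor of TRAIL, lies on chromosome 14 from 69767472 to 69784411, and its human counterpart is also a known target of the stress factor CHOP. It was at 36.9, 27.5, 34.1 and 38.6 CPM with AGX51, against 18.4, 20.3, 21.5 and 22.4 CPM with vehicle. The groups did not overlap, and the log2FC was 0.74 (SE 0.13, adjusted p = 0.00131).

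*Aen*, which encodes an exonuclease that digests nucleic acids during apoptosis, lies on chromosome 7 from 78895854 to 78911209. It was at 33.8, 27.7, 18.7 and 26.1 CPM with AGX51, against 12.6, 13.02, 15.0 and 15.3 CPM with vehicle. All AGX51 libraries were above all vehicle libraries, with the smallest difference in culture 3 (0.32 on the log2 scale) and the largest in culture 1 (1.41). The log2FC was 0.92 (SE 0.17, adjusted p = 0.00162). *Perp*, a plasma membrane protein gene of desmosomes and p53-dependent death, lies on chromosome 10 from 18845020 to 18857073. It was at 58.0, 80.9, 74.8 and 133.4 CPM with AGX51, against 33.2, 45.9, 47.3 and 74.2 CPM with vehicle. Each culture was higher with AGX51, by 0.66 to 0.84 on the log2 scale, but the groups overlapped, since culture 4 had the highest level in both. The log2FC of *Perp* was 0.79 (SE 0.25, adjusted p = 0.0298). With culture as a block it was 0.78 (SE 0.08, adjusted p = 9.01e-08), since the change within each culture was even. In fits with no culture term, *Perp* was not called without AGX51 replicate 4 (0.50, adjusted p = 0.0826) or without vehicle replicate 1 (0.64, 0.0848), 2 (0.77, 0.0697) or 3 (0.78, 0.0712). The fibroblast markers had a mean log2 CPM of 6.01, 6.22, 6.31 and 6.97 with AGX51, against 5.76, 5.99, 5.99 and 6.45 with vehicle, and *Perp* was highest where they were highest. With that mean as a covariate, the log2FC of *Perp* was 0.34 (adjusted p = 0.0185), below the fold threshold. The mean was itself higher with AGX51 in each culture, so this fit cannot tell fibroblast content and treatment apart.

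**Figure D2:**
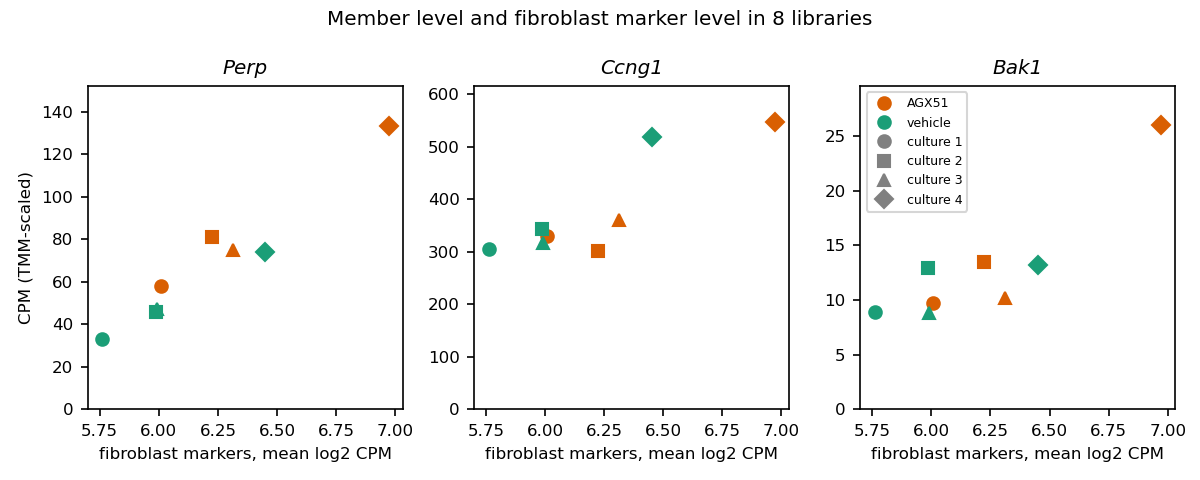
CPM of *Perp*, *Ccng1* and *Bak1* (vertical axes) against the mean log2 CPM of the fibroblast markers (horizontal axes) in the 4 AGX51 and 4 vehicle libraries, with a marker shape for each culture. Culture 4 has the highest marker mean in both groups (6.97 with AGX51 and 6.45 with vehicle), and its AGX51 library has the highest level of all 3 genes.

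The other 10 p53 targets had log2FC values of -0.15 to 0.42 and were not called. *Trp53inp1*, whose product promotes autophagy and death, had the largest of these, at 101.8, 75.0, 68.3 and 87.1 CPM with AGX51, against 59.5, 59.7, 61.1 and 68.4 CPM with vehicle. The groups overlapped by a narrow margin. It was higher in 4 of 4 cultures and passed the adjusted p but not the fold threshold (log2FC 0.42, SE 0.12, adjusted p = 0.0193, range over the alternatives 0.000931 to 0.064). For the remaining 9 the adjusted p ranged upward from 0.521, the value of *Zmat3*, an RNA-binding protein gene (12.6 to 28.2 CPM with AGX51 and 13.9 to 22.3 CPM with vehicle, log2FC 0.22). *Phlda3*, an inhibitor of AKT, was at -0.15, *Eda2r*, a TNF receptor family gene, at -0.06, *Fas*, the death receptor of FAS ligand, at -0.10, and *Ei24*, an endoplasmic reticulum protein gene, at -0.08 (log2FC values). Their levels in the AGX51 and vehicle libraries overlapped, at 22.2 to 35.3 and 27.7 to 37.8 CPM for *Phlda3*, 9.54 to 16.6 and 12.7 to 17.4 CPM for *Eda2r*, 7.32 to 13.7 and 7.90 to 16.8 CPM for *Fas*, and 28.8 to 38.2 and 31.6 to 41.5 CPM for *Ei24*. *Btg2*, an antiproliferative cofactor gene, was at 0.01, *Rrm2b*, a subunit gene of ribonucleotide reductase used in repair, at 0.02, and *Ddb2*, a sensor gene of ultraviolet damage, at 0.05 (log2FC values). These overlapped as well, at 85.6 to 102.4 CPM with AGX51 and 77.01 to 102.4 CPM with vehicle for *Btg2*, 12.98 to 15.2 and 12.2 to 16.3 CPM for *Rrm2b*, and 16.6 to 26.9 and 19.8 to 26.0 CPM for *Ddb2*. For 7 of the 10, the 95% interval excluded a fold change of 1.5 in either direction. The exceptions were *Trp53inp1*, whose interval reached 0.68, *Zmat3*, whose interval reached 0.74, and *Fas*, whose interval reached -0.66.

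*Ccng1*, which encodes cyclin G1, a partner of the phosphatase that acts on MDM2, was not called. It was at 330.8, 301.8, 359.6 and 547.6 CPM with AGX51 and at 305.3, 344.0, 315.7 and 517.7 CPM with vehicle, with a log2FC of 0.06 (95% interval -0.37 to 0.49, adjusted p = 0.858). Its 2 high libraries were both of culture 4, where the levels with AGX51 and with vehicle differed by 0.08 on the log2 scale. Its promoter is shown because it was the only member promoter with a match to the consensus p53 element, here a pair of adjoining half-sites with at most 2 mismatches outside the fixed C and G of each. The RefSeq promoters used, from 250 bases before to 50 after a gene's start on GRCm38.p6, gave 35 sequences for 26 of the 35 members. The members without a sequence, which were not searched, included the called genes *Tnfrsf10b*, *Perp* and *Bik*. Of all 32851 promoters, 0.326% held a match. The match in *Ccng1*, in capitals, has 1 mismatch and begins at position -195 relative to the start, in the window chr11:40755237-40755536, minus strand.
Ccng1: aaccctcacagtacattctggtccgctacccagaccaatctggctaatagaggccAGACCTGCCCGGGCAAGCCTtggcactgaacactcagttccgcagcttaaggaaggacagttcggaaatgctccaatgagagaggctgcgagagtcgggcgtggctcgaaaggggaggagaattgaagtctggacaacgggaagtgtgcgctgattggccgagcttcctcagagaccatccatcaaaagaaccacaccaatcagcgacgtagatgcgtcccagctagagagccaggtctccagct
A match describes the letters of this window and does not show binding, and p53 elements outside these windows, such as those in first introns, were not searched.

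A list of 30 further p53 targets had 27 tested genes, 1 higher, 1 lower and 25 not called, with a median log2FC of -0.02. The called share was 7.41%, against 18.5% of all tested genes. *Cdkn1a*, the p21 gene and a main arrest target of p53, was at 268.5, 303.8, 293.6 and 490.3 CPM with AGX51 and at 271.5, 339.9, 347.7 and 427.6 CPM with vehicle (log2FC -0.03, 95% interval -0.43 to 0.37, adjusted p = 0.917). *Gadd45a*, a stress and repair gene that ATF4 and CHOP can also raise, rose to 44.1 ± 15.0 CPM with AGX51, against 13.8 ± 0.407 CPM with vehicle (SD, n = 4; log2FC 1.68, SE 0.19, adjusted p = 6.99e-05 from edgeR). *Triap1*, named after its value was seen, was the gene that fell (log2FC -0.66, adjusted p = 0.0299). *Epha2* (-0.57), *Foxo3* (0.58) and *Sesn1* (0.54) had adjusted p-values of 0.00291, 0.0043 and 0.0046 but stayed under the fold threshold, as log2FC values. With culture as a block *Pidd1*, likewise named afterwards, was also lower (log2FC -0.67, adjusted p = 0.017). Of 17 tested regulators of p53, 0 were called, against 18.5% of all tested genes, with log2FC values of -0.28 to 0.44. An adjusted p under 0.05 was found for 1 of them (5.88%, against 30.5% of all tested genes). It was the ubiquitin ligase gene *Rchy1* (log2FC 0.31, adjusted p = 0.0228). At the next smallest adjusted p-values stood *Atm* (-0.28), *Usp7* (-0.19) and *Trp53bp1* (0.21), as log2FC values.

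The BH3-only genes were split: of 8, 2 were higher, 1 was lower and 5 were not called, with a median log2FC of 0.22. The called share was 37.5%, against 18.5% of all tested genes. *Hrk*, which encodes a BH3-only protein best known from neurons deprived of growth factor, had the steepest rise of the 35 genes. The gene spans positions 118164648 to 118189478 of chromosome 5. It was at 4.85, 3.10, 2.94 and 2.43 CPM with AGX51, against 0.987, 0.697, 1.36 and 0.833 CPM with vehicle. These levels rest on 31, 14, 20 and 19 counts with AGX51 and on 9, 6, 13 and 8 counts with vehicle, more with AGX51 in each culture although those libraries were shallower. The log2FC of *Hrk* was 1.75 (SE 0.34, adjusted p = 0.00193), and leaving out each library in turn gave 1.53 to 1.98. The promoter of *Hrk* is shown because it was the only member promoter that held TGATGNAA, the core of sites bound by ATF4 together with C/EBP factors (N is any base, both strands searched, no overlap with the p53 element). It was in 1 of the 35 member promoters and in 3.97% of all 32851 promoters of this length. By gene, it was in 1 of the 26 members with a sequence and in 4.51% of all genes. Its part in the rise of *Hrk* was not tested. The match, in capitals, begins at position -114 relative to this RefSeq start, in the window chr5:118169514-118169813, plus strand.
Hrk: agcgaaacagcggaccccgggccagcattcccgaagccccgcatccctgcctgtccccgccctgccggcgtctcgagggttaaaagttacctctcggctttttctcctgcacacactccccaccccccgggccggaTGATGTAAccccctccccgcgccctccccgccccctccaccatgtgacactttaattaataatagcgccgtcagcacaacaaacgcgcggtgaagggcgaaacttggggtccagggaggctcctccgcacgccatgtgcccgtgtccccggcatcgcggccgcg
This start lies inside the gene's annotated span in GENCODE, and which start was used in these cells was not measured.

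*Bbc3*, which encodes PUMA, a potent killer that binds all survival proteins and is induced by p53 and also by CHOP, lies on chromosome 7 from 16308393 to 16318205. It was at 10.6, 15.5, 10.7 and 16.4 CPM with AGX51, against 5.81, 4.65, 6.49 and 6.98 CPM with vehicle. The lowest AGX51 library was above the highest vehicle library, and each culture was higher by 0.71 to 1.71 on the log2 scale. The log2FC was 1.15 (SE 0.21, adjusted p = 0.00124), a 2.21-fold rise. *Bik*, a BH3-only gene of the endoplasmic reticulum, lies on chromosome 15 from 83526862 to 83544634. It fell to 19.9, 15.5, 23.8 and 12.9 CPM with AGX51, against 33.5, 26.5, 32.0 and 25.9 CPM with vehicle. The groups did not overlap (log2FC -0.71, SE 0.18, adjusted p = 0.0101). Without AGX51 replicate 4 the log2FC of *Bik* was -0.56 (adjusted p = 0.0188) and with the fibroblast covariate it was -0.51 (adjusted p = 0.0248), both under the fold threshold.

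*Bad*, whose product is held inactive by AKT phosphorylation downstream of growth factors, was at 29.1, 31.9, 29.1 and 35.001 CPM with AGX51, against 39.9, 43.5, 42.0 and 53.6 CPM with vehicle. The groups did not overlap, but the log2FC of -0.52 (SE 0.12, adjusted p = 0.00685) was under the fold threshold, and *Bad* was called with the fibroblast covariate (-0.65, adjusted p = 0.000389) and with library totals as the only scaling (-0.59, adjusted p = 0.00458). *Bmf*, which senses loss of cell attachment, rested on 12 to 23 counts with AGX51 and 34 to 44 counts with vehicle and had a log2FC of -0.62 (adjusted p = 0.0734), lower in 4 of 4 cultures. Its 2.06 to 2.94 CPM with AGX51 did not overlap the 3.54 to 5.11 CPM with vehicle. *Bid*, cut by caspase-8 to link death receptors to mitochondria, was at 64.7, 69.9, 61.0 and 70.6 CPM with AGX51, against 52.0, 60.4, 59.3 and 49.6 CPM with vehicle. These groups did not overlap either, with a log2FC of 0.27 (adjusted p = 0.0597, and 0.0131 with culture as a block). *Bid* shares 628 exon bases with *Bcl2l13* on the opposite strand, a gene that rose. *Pmaip1*, the gene of NOXA, which neutralizes MCL1, was at 162.5, 147.7, 164.4 and 211.4 CPM with AGX51 and at 166.5, 123.9, 161.0 and 145.4 CPM with vehicle (log2FC 0.20, 95% interval -0.07 to 0.48, adjusted p = 0.25). *Bcl2l11*, the gene of BIM, was at 5.77 to 11.8 CPM with AGX51 and 4.18 to 8.48 CPM with vehicle, with a log2FC of 0.24 (95% interval -0.33 to 0.81, adjusted p = 0.526). For 6 of the 8 BH3-only genes the groups did not overlap, 3 higher and 3 lower, against 30.2% of all tested genes, 14.8% higher and 15.5% lower.

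**Figure D3:**
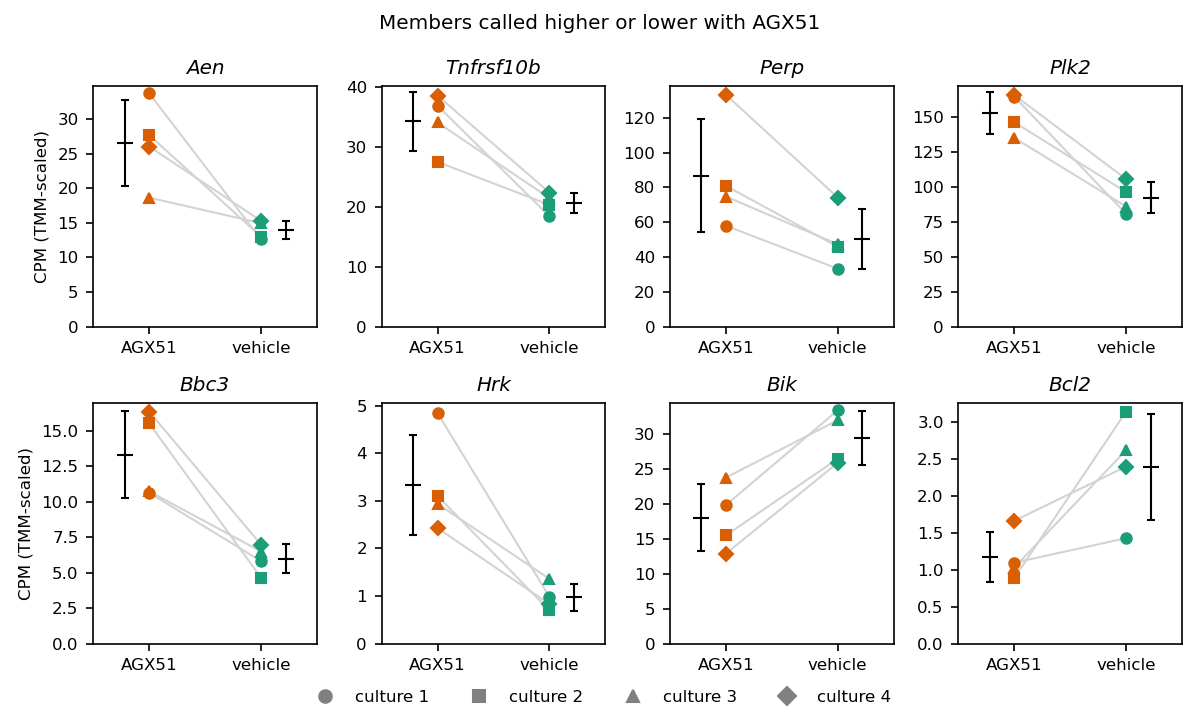
CPM after TMM scaling of the 8 members called with AGX51, in each library. Points joined by a line are the same culture, and the bars beside them give the mean and SD of 4 libraries. *Aen*, *Tnfrsf10b*, *Perp*, *Plk2*, *Bbc3* and *Hrk* are higher and *Bik* and *Bcl2* lower with AGX51 in each culture, and the groups overlap for *Perp* and *Bcl2*.

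The survival genes all had negative log2FC values, but of 3 only *Bcl2* was called (33.3% lower, against 9.93% of all tested genes). *Bcl2*, on chromosome 1 from 106538178 to 106714274, was at 1.09, 0.887, 1.03 and 1.66 CPM with AGX51, against 1.43, 3.14, 2.62 and 2.39 CPM with vehicle. The counts behind these values were 7, 4, 7 and 13 with AGX51 and 13, 27, 25 and 23 with vehicle, so *Bcl2* was the member with the fewest counts after AGX51. Each culture was lower with AGX51, yet the groups overlapped, since AGX51 culture 4 was above vehicle culture 1. The log2FC of *Bcl2* was -0.99 (SE 0.35, adjusted p = 0.0466), and its call was the least firm of the 8. It was lost with DESeq2 (-0.99, adjusted p = 0.0713), with limma-voom (-0.91, 0.0702) and with no count filter (-0.97, 0.0602). It was also lost without AGX51 replicate 1 (-0.93, adjusted p = 0.0996), 2 (-0.88, 0.0999) or 3 (-0.91, 0.109) and without vehicle replicate 2 (-0.82, 0.125), 3 (-0.93, 0.108) or 4 (-0.98, 0.0784).

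*Bcl2l1*, which encodes BCL-XL, was at 63.9, 86.9, 77.3 and 94.9 CPM with AGX51 and at 90.4, 106.0, 85.1 and 99.3 CPM with vehicle. It was lower in 4 of 4 cultures, with a log2FC of -0.24 (95% interval -0.50 to 0.03, adjusted p = 0.159). With culture as a block its adjusted p was 0.0179 (log2FC -0.24), under the fold threshold. *Mcl1*, a short-lived survival protein gene, was at 53.003, 61.0, 50.8 and 61.8 CPM with AGX51 and at 52.5, 60.4, 62.1 and 61.7 CPM with vehicle. Cultures 1, 2 and 4 differed by at most 0.01 on the log2 scale for *Mcl1*, and its log2FC was -0.06 (95% interval -0.28 to 0.16, adjusted p = 0.671). The interval of both genes excluded a fold change of 1.5.

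The effectors were not called. *Bax*, the pore-forming effector and a p53 target, was at 394.5, 364.6, 432.3 and 460.6 CPM with AGX51 and at 429.4, 434.2, 372.1 and 429.9 CPM with vehicle. The ranges overlapped widely, with a log2FC of -0.01 (95% interval -0.24 to 0.22, adjusted p = 0.95). *Bak1*, the other effector gene, was at 9.69, 13.5, 10.1 and 26.1 CPM with AGX51 and at 8.89, 12.9, 8.79 and 13.2 CPM with vehicle. AGX51 culture 4 was the highest of the 8 by far, and the log2FC was 0.45 (95% interval -0.17 to 1.08, adjusted p = 0.253) and 0.01 to 0.63 with single libraries left out. That library also had the highest fibroblast marker mean, 6.97, and with this mean as a covariate *Bak1* was at -0.07 (adjusted p = 0.829). As for *Perp*, this fit cannot tell fibroblast content and treatment apart.

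Of the 6 caspase and mitochondrial factor genes, 0 were called, against 18.5% of all tested genes. With less than a 1.5-fold change, 3 passed the adjusted p (50%, against 30.5% of all tested genes with no fold threshold). *Apaf1*, the scaffold of the apoptosome, was at 21.3, 28.8, 22.9 and 26.1 CPM with AGX51, against 18.0, 18.0, 18.8 and 16.3 CPM with vehicle. *Casp9*, the caspase that APAF1 activates, was at 13.1, 16.2, 16.9 and 12.1 CPM with AGX51, against 18.2, 22.2, 19.8 and 18.3 CPM with vehicle. These partners thus stood on opposite sides, both without overlap between groups: *Apaf1* had a log2FC of 0.47 (SE 0.13, adjusted p = 0.0172) and *Casp9* one of -0.43 (SE 0.15, adjusted p = 0.0423). *Htra2*, a mitochondrial protease that blocks IAP proteins when released, was at 27.8, 30.2, 22.5 and 39.5 CPM with AGX51, against 17.7, 26.5, 19.0 and 20.0 CPM with vehicle (log2FC 0.53, SE 0.18, adjusted p = 0.0394). With AGX51 replicate 3 or vehicle replicate 2 left out *Htra2* passed both thresholds (0.65, adjusted p = 0.0196, and 0.68, adjusted p = 0.0163). It passed neither without AGX51 replicate 2 (0.54, adjusted p = 0.061) or 4 (0.36, 0.11), without vehicle replicate 1 (0.46, 0.109), 3 (0.50, 0.0908) or 4 (0.51, 0.0747), or without both libraries of culture 4 (0.34, 0.164). Over all alternatives the adjusted p ranged from 0.00397 to 0.067 for *Apaf1* and from 0.0083 to 0.132 for *Casp9*. *Diablo*, another released IAP blocker, had a log2FC of -0.19 (adjusted p = 0.208), *Casp8*, the initiator caspase of death receptors, 0.03 (adjusted p = 0.932) and *Dapk1*, a death-associated kinase gene, 0.24 (adjusted p = 0.412). All 3 overlapped between groups, at 131.7 to 163.3 CPM with AGX51 and 151.3 to 197.0 CPM with vehicle for *Diablo*, 9.76 to 14.4 and 9.30 to 15.4 CPM for *Casp8*, and 7.49 to 16.5 and 8.69 to 11.5 CPM for *Dapk1*.

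Other genes of the pathway were taken from lists written with the member groups. Of 6 tested further BCL2 family genes, 1 was higher and 0 were lower (16.7% called, against 18.5% of all tested genes). The higher gene was *Bcl2l13*, a mitochondrial outer membrane protein gene that also acts in mitophagy. *Bcl2l13* was at 82.2, 82.9, 77.6 and 79.2 CPM with AGX51, against 41.4, 36.1, 42.2 and 34.8 CPM with vehicle. Its log2FC was 1.06 (SE 0.10, adjusted p = 1.26e-05). *Bnip3* (0.42, adjusted p = 0.0138), *Bok* (-0.38, 0.096) and *Bnip3l* (0.11, 0.307) were not called. Of 6 tested further caspase genes, 0 were called, against 18.5% of all tested genes, with *Casp6* at -0.34 (log2FC, adjusted p = 0.0174). *Casp2* and *Casp12* were at -0.24 and -0.45 (log2FC values, adjusted p = 0.149 and 0.449).

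Of 11 tested death receptor and adaptor genes, 3 were higher and 1 was lower (36.4% called, against 18.5% of all tested genes). *Cflar*, which encodes the caspase-8 inhibitor FLIP, was at 273.9, 385.0, 294.3 and 314.0 CPM with AGX51, against 153.9, 211.0, 195.0 and 193.1 CPM with vehicle (log2FC 0.75, adjusted p = 0.000936). *Tnfrsf21*, which encodes death receptor DR6, rose as well (1.498, adjusted p = 0.000586), as did the adaptor gene *Traf2* (0.86, adjusted p = 0.000615). *Tnfrsf25*, which encodes DR3, fell to 2.50, 2.66, 2.20 and 1.79 CPM with AGX51, against 9.11, 9.41, 8.58 and 8.43 CPM with vehicle, a log2FC of -1.97 (SE 0.21, adjusted p = 3.91e-05). So in these libraries the genes of a TRAIL receptor, DR6 and the inhibitor FLIP rose, while *Fas* and *Casp8* were not called.

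Of 15 tested IAP and executioner genes, 2 were higher and 2 were lower (26.7% called, against 18.5% of all tested genes). The testis form of cytochrome c, *Cyct*, fell to 26.6, 15.5, 25.0 and 14.4 CPM with AGX51, against 69.6, 58.7, 69.7 and 61.8 CPM with vehicle (log2FC -1.67, SE 0.18, adjusted p = 4.09e-05). The spermatid marker *Tnp1* was lower too, at 14.0 CPM on average with AGX51 and 28.3 CPM with vehicle, and its part in the change of *Cyct* was not tested. The somatic form, *Cycs*, had a log2FC of -0.50 (adjusted p = 0.00168) and *Aifm1*, the apoptosis-inducing factor gene, one of -0.54 (adjusted p = 0.00237), both under the fold threshold. *Vdac2*, an outer membrane channel gene whose product holds BAK, rose (0.61, adjusted p = 0.000579). The other called genes, named after their values were seen, were *Aifm2* (0.62, adjusted p = 0.00467) and *Dffa*, the inhibitor of the caspase-activated nuclease (-0.70, adjusted p = 0.00677).

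**Figure D4:**
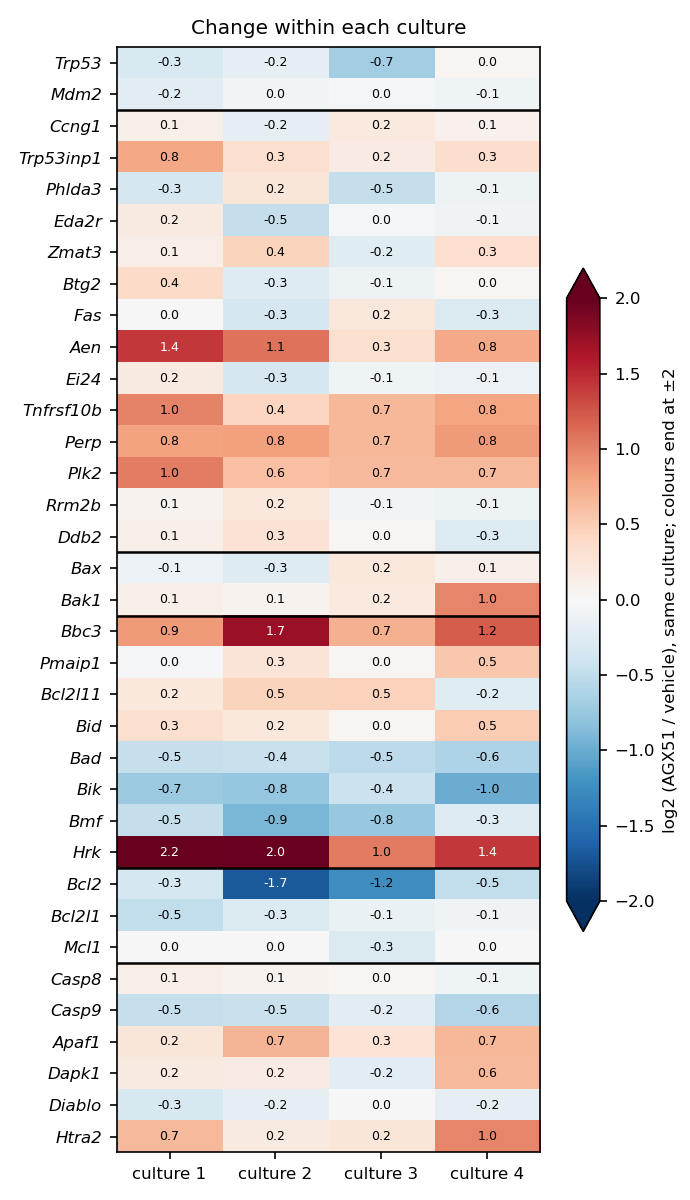
Log2 ratio of AGX51 over vehicle within each of the 4 cultures for the 35 genes, in the groups of the text from p53 and MDM2 at the top to caspases and mitochondrial factors at the bottom. Red is higher and blue lower with AGX51, the printed numbers are the ratios, and 11 genes are higher and 8 lower in all 4 cultures.

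Across cultures, 11 members (31.4%) were higher with AGX51 in 4 of 4 cultures and 8 (22.9%) were lower in 4 of 4, against 27.1% of all tested genes in each direction. Beside the 6 genes called higher, those higher in each culture were *Trp53inp1*, *Bak1*, *Bid*, *Apaf1* and *Htra2*. The genes lower in each culture were *Mdm2*, *Bad*, *Bik*, *Bmf*, *Bcl2*, *Bcl2l1*, *Casp9* and *Diablo*, of which *Bik* and *Bcl2* were called. Cultures also differed in level: 15 of 35 members were highest in culture 4 in both groups, and 0, 0 and 1 were highest in cultures 1, 2 and 3 in both. The share of all tested genes with this pattern was not counted, so it is not read as particular to the members. Without both libraries of culture 4, the same number of members was called, 6 higher and 2 lower. Over all 14340 genes tested in that fit, 1158 were higher and 1343 lower. Set side by side by role, the median log2FC values were -0.18 for p53 and MDM2, 0.06 for p53 targets, 0.22 for effectors, 0.22 for BH3-only genes, -0.24 for survival genes and 0.14 for caspases and mitochondrial factors. Differences between these groups of genes were not tested, since genes in one set of libraries are not replicates of a condition.

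Of the members, 8 share exon bases with a listed gene on the opposite strand: *Ei24*, *Ddb2*, *Bak1*, *Bid*, *Bad*, *Casp9*, *Diablo* and *Htra2*. The shared part was 94 of 5197 exon bases for *Casp9* and, for *Htra2*, 535 with *Loxl3* and 753 with *Aup1* of 2946. The strand setting of the counting is not given in the sources used here, so reads in the shared bases of these pairs cannot be told apart.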

How the data were processed

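The authors made 8 libraries (4 AGX51, 4 vehicle) from poly(A)-primed cDNA by template switching and tagmentation, and their RNAsik pipeline gave the deposited raw count values per gene. Tools in the submitters' processing notes are featureCounts, STAR, Salmon, limma and edgeR, without versions, with the build GRCm38. The deposited CPM values equal counts over library totals of the listed genes. The log2 and p-value columns hold the authors' limma-voom comparison and were not used. Names turned into dates by a spreadsheet (22 genes, no members) were restored from gene IDs, of which 17147 matched GENCODE M21, the source of coordinates.

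Here R 4.3.3 and edgeR 4.0.16 were used on the counts (filterByExpr with minimum count 10 and minimum total 15, TMM, quasi-likelihood test), with p-values adjusted over 14428 genes. Standard errors are the log2FC over the square root of F. The script was tested on simulated data. Alternatives were a culture block, DESeq2 1.42.0, voom in limma 3.58.1, RLE scaling, scaling by totals, 2 other filters, no fold threshold, a fibroblast covariate and libraries left out. Members, lists and alternatives were chosen with earlier results of these data known, and the lists of other pathway genes were written from general knowledge. All 35 members are named. Per-library values are given for members called with or without the block and for Trp53, Mdm2 and the main effector and survival genes, and for some others. Up to 4 genes of each other list, by adjusted p, and Cdkn1a are named, except for a result that is not reported here. Between replicates, chi-square over its degrees of freedom was 6.25 to 19.9, above counting noise. Libraries of the same number come from the same culture by their labels, and after group means were removed they correlated at 0.109 to 0.427, those of different cultures at -0.273 to 0.0861. Error intervals cover the spread between these cultures.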

Additional observations from a re-analysis of the deposited data

Results flagged for a closer look

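In 3 of 70 sets of 4 libraries (35 members, 2 groups), 1 library stood apart from the other 3 by Dixon's criterion, which chance alone gives in about 1 of 20 sets. For *Eda2r*, vehicle replicate 4 was at 17.4 CPM, against 12.7 to 13.2 CPM in the other vehicle libraries. For *Btg2*, vehicle replicate 1 was at 77 CPM, against 99.3 to 102 CPM. For *Bax*, vehicle replicate 3 was at 372 CPM, against 429 to 434 CPM. None of the 3 genes was called with or without these libraries.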

How the results depend on the processing

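*Aen*, *Tnfrsf10b*, *Plk2*, *Bbc3* and *Hrk* kept their calls under all 18 alternatives, with log2FC values of 0.80 to 1.06, 0.65 to 0.84, 0.66 to 0.80, 0.96 to 1.26 and 1.53 to 2.00. The calls of *Perp*, *Bik* and *Bcl2* did not hold throughout, and the cause was not tested. With culture as a replicate block, the pairing by culture gave 6 members higher and 2 lower, the same genes, and 1394 and 1627 genes in all, and it changed the call of no member.

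The number of members called lower was 1 with no count filter, DESeq2 and limma-voom, 3 with library totals only, where *Bad* was added, 4 with no fold threshold and 1 to 2 with single libraries left out, where 5 to 7 were higher. With no fold threshold, 2190 genes were higher and 2211 lower in all, and 13 and 11 of the other pathway genes. The number of other pathway genes called lower was 7 with library totals only and 8 with the fibroblast covariate, against 4 as reported.

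Signs turned only for uncalled members, given here as log2FC. With library totals only, *Ccng1* was at -0.03, *Btg2* at -0.07, *Rrm2b* at -0.06, *Ddb2* at -0.02 and *Casp8* at -0.05. With no count filter *Bax* was at 0.01, and without culture 4 *Fas* was at 0.00. With the fibroblast covariate *Ccng1* was at -0.27, *Zmat3* at -0.09, *Btg2* at -0.05, *Rrm2b* at -0.09, *Bak1* at -0.07 and *Casp8* at -0.22. With single libraries left out the ranges were -0.17 to 0.00 for *Mdm2*, -0.16 to 0.26 for *Ccng1*, -0.18 to 0.07 for *Eda2r*, -0.07 to 0.07 for *Btg2*, -0.27 to 0.18 for *Fas*, -0.03 to 0.11 for *Rrm2b*, -0.01 to 0.20 for *Ddb2*, -0.07 to 0.06 for *Bax* and -0.11 to 0.22 for *Casp8*. Depth limits *Bcl2*, *Hrk* and *Bmf*, which rested on 4 to 44 counts a library.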
